A study of Mus musculus with 36 samples.

Results

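The data described here are the transcript levels of 10 genes of T cell receptor signalling, *Trbc1*, *Trbc2*, *Cd3e*, *Cd3d*, *Cd3g*, *Cd247*, *Lck*, *Zap70*, *Lat* and *Thy1*, in mouse B cell progenitors. They were picked by symbol, without use of their levels, from 3 RNA-seq tables that list 46078, 35896 and 18721 genes. Each table holds 8 libraries in 4 groups of 2. All 10 genes were listed in the first 2 tables and 6 in the third, where *Cd3e*, *Cd3g*, *Trbc1* and *Trbc2* were not analysed here. The first table covers sorted bone marrow cells, pro-B and pre-B, of Wt and Sirt7-/- 129Sv mice, the latter with a germline deletion of part of the *Sirt7* exons. Among the markers of the gates, both stages were B220+ and IgM-, pro-B cells were CD43+ and pre-B cells CD43-, and each of the 4 mice gave 1 library of either stage. The second table covers cultured Pax5-/- progenitors on the C57BL/6 background, transduced with an empty retroviral vector (EV), Pax5Wt, PAX5K198Q or PAX5K198R. The lysine named in these labels was replaced by glutamine in PAX5K198Q, which the study uses as a mimic of the acetylated protein, and by arginine in PAX5K198R, its mimic of the deacetylated protein. The third table covers cultured pro-B cells of Wt mice with EV and of Sirt7-/- mice with EV, Pax5Wt or PAX5K198R. Cultures were kept on a layer of inactivated OP9 stromal cells with IL-7, SCF and FLT3 ligand, the Wt and Sirt7-/- mice were 8 to 16 weeks old, and the same kind of Pax5-/- cultures gave Pax5 ChIP-seq peak lists for Pax5Wt, PAX5K198Q and PAX5K198R. The labels call the Pax5-/- cells bone marrow pro-B cells while the methods derive them from fetal liver. The study followed several of these genes by other assays, so the list is not independent of its results.

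In T cells the variable antigen receptor chains, whose constant parts include those encoded by *Trbc1* and *Trbc2*, signal through the CD3 chains (*Cd3e*, *Cd3d*, *Cd3g*) and the zeta chain (*Cd247*). The Src-family kinase Lck phosphorylates motifs in these chains, the kinase Zap70 docks there and phosphorylates the adaptor Lat, and Lat gathers the enzymes that act downstream. B cells use an analogous apparatus made of Cd79a, Cd79b, the Src-family kinases Lyn and Blk, the Zap70 relative Syk and the adaptor Blnk. Pax5 is the transcription factor that commits progenitors to the B lineage and represses genes of other lineages, and Sirt7 is a nuclear deacetylase. Thy1 is a surface glycoprotein of thymocytes and T cells.

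On the mouse build GRCm38 (mm10, GENCODE vM21) *Zap70* is at chr1:36761798-36782818 on the plus strand and *Cd247* at chr1:165788681-165877277 on the plus strand. *Lck* is at chr4:129548344-129573641 and *Lat* at chr7:126363824-126369570, both on the minus strand. *Trbc1* (chr6:41538218-41539881) and *Trbc2* (chr6:41546730-41548352) are neighbours on the plus strand, and their coding sequences are nearly identical, so the split of reads between them is uncertain. *Cd3g* (chr9:44969572-44980431, minus), *Cd3d* (chr9:44981786-44987339, plus) and *Cd3e* (chr9:44998740-45009627, minus) form a cluster on the chromosome that also holds *Thy1* (chr9:44043384-44048579, plus). *Cd247* overlaps the antisense gene *Pou2f1*, and *Cd3e* overlaps predicted genes on both strands. The library chemistry marks strand, but the strand setting of the counting is not given in the sources used here, so reads of such pairs may be mixed.

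Pax5 peaks lay within 5 kb of the gene body in both replicate lists for 4 of the 10 members with Pax5Wt (*Zap70*, *Cd3d*, *Lck* and *Lat*), for none with PAX5K198Q and for the same 4 with PAX5K198R. Over 22036 genes of the annotation the shares were 28.4%, 10.7% and 32.3%. Within 20 kb of the gene body the members with a peak numbered 7, 1 and 6, against 39.0%, 16.0% and 43.0% of genes, and the members were not tested against genes in general at either distance. The same peak, inside *Cd3d*, counted for the neighbours *Cd3e*, *Cd3d* and *Cd3g* with Pax5Wt and with PAX5K198R. *Thy1* counted for Pax5Wt through peaks at different places in the replicate lists. The counts are therefore not counts of separate shared peaks. The lists differ in length, with 10646 and 11830 peaks for Pax5Wt, 3750 and 3957 for PAX5K198Q and 12158 and 13997 for PAX5K198R. The second PAX5K198Q list on its own held peaks at *Cd3d*, *Lck* and *Lat*, and the first at no member. At *Lck* the shared peak had its summits at positions -1743 to -1770 from the annotated start, upstream of the gene, with a fold enrichment over input of 6.94 to 11.9 in the 4 Pax5Wt and PAX5K198R lists. The second PAX5K198Q list placed a summit at -1776 with a fold of 4.63. A second *Lck* peak, in an intron 14685 to 14956 bases past the start, was in both Pax5Wt lists and the second PAX5K198R list (fold 5.16 to 6.12). At *Lat* the summits lay between -50 and 49 bases from the start and the fold was 2.96 to 6.20 in the same 4 lists, and 5.19 in the second PAX5K198Q list. At *Zap70* an intronic peak with summits 4771 to 4847 bases past the start had a fold of 4.51 and 6.23 with Pax5Wt and of 6.37 in the second PAX5K198R list. In the first PAX5K198R list it was merged with the next peak (summit at 5180, fold 8.37), and neither PAX5K198Q list held it. At *Cd3d* a peak near the end of the gene had a fold of 3.21 to 10.5 with Pax5Wt and PAX5K198R, and of 4.09 in the second PAX5K198Q list. A further peak, 35810 to 35873 bases past the *Zap70* start and beyond its end, within the bounds of *Tmem131*, was present in all 6 lists, with a fold of 3.79 to 13.6. In PAX5K198Q its fold was 7.55 and 3.79, against 9.57 and 13.6 with Pax5Wt and 11.5 and 13.3 with PAX5K198R. Both PAX5K198Q values were below the 4 others. Fold enrichments come from separate peak calls per library and were not tested between forms. Peaks were called at a q-value under 0.05, and with a q-value under 1e-05 the counts were 3, 0 and 3 of 10.

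**Figure D1:**
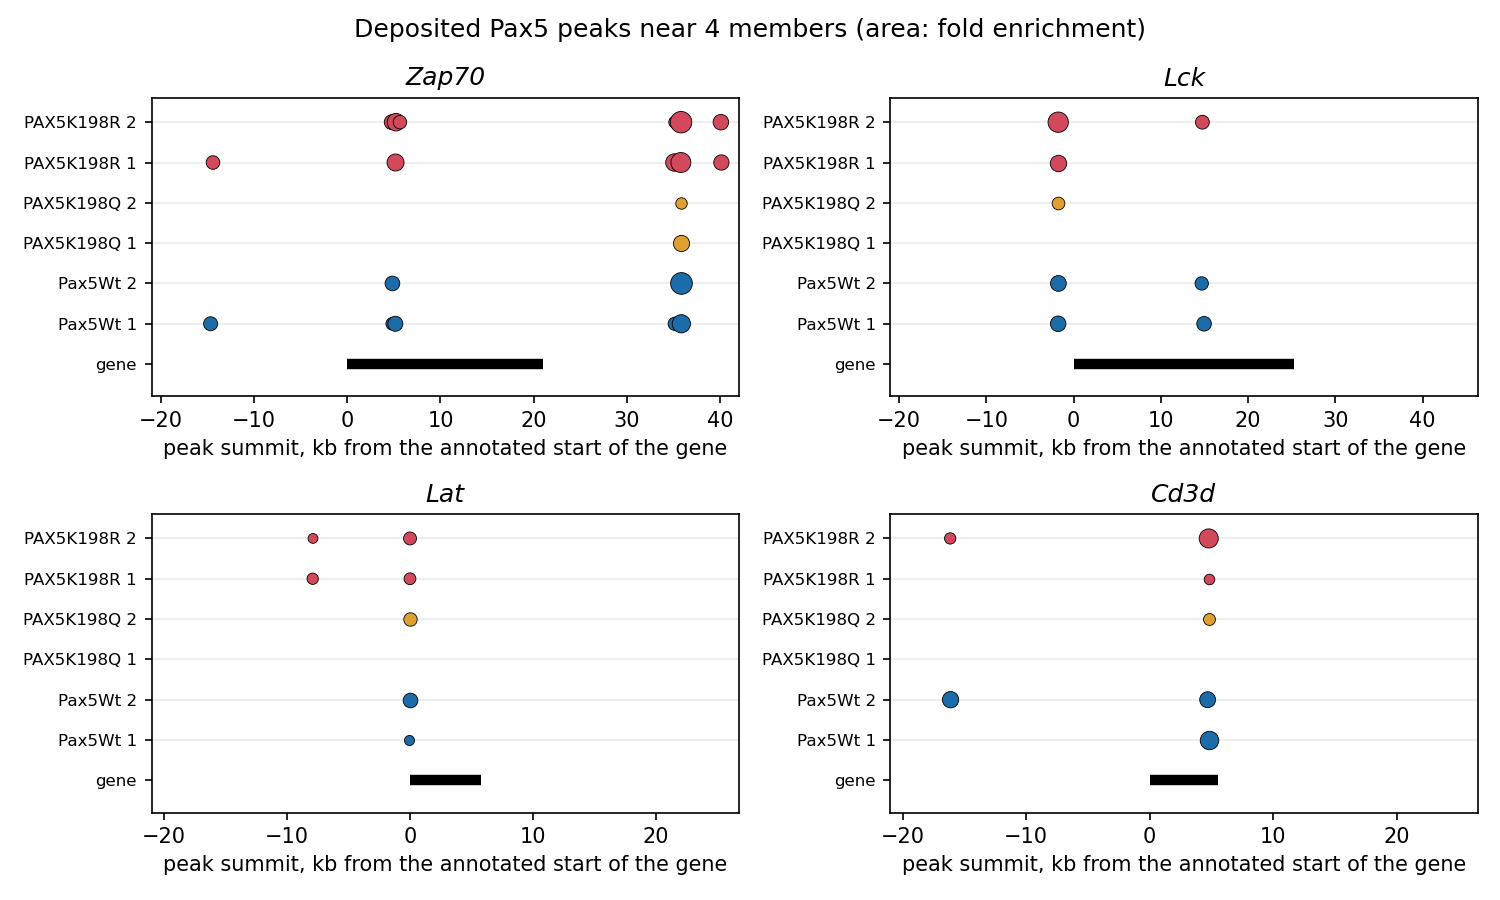
Position of Pax5 peak summits relative to the annotated start of *Zap70*, *Lck*, *Lat* and *Cd3d* (horizontal axis, kb) in the 6 peak lists (one line per form and replicate), with point area in proportion to fold enrichment over input. The *Lck* peak upstream of the start and the *Lat* peak at the start appear in both Pax5Wt and both PAX5K198R lists and in the second PAX5K198Q list, and the *Zap70* peak beyond the gene's end appears in all 6.

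The stretches shared by the peaks at *Zap70*, *Lck* and *Lat* are printed because these are the places where Pax5 was measured at members whose transcripts were also measured in the same cells. They are read from GRCm38, 5′ to 3′, on the strand of the gene, and capitals mark CAGGAA or its reverse complement TTCCTG. These letters contain the GGAA core that Ets-family factors bind, and they were chosen after the sequences had been seen. The regions are chr1:36766538-36766761 (plus, 224 bases, *Zap70* intron), chr1:36797532-36797745 (plus, 214 bases, downstream of *Zap70*), chr4:129575289-129575537 (minus, 249 bases, upstream of *Lck*) and chr7:126369571-126369662 (minus, 92 bases, the part of the *Lat* peak upstream of its start).
Zap70 intron: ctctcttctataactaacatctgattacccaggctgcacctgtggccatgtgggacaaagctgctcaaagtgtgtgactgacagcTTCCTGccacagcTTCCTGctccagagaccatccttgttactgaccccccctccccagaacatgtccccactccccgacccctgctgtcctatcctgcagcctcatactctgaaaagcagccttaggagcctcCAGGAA
Zap70 downstream: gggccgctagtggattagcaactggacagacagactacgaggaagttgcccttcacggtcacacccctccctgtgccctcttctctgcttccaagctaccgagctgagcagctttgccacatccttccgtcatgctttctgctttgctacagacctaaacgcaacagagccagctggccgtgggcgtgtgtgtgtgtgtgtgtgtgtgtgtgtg
Lck upstream: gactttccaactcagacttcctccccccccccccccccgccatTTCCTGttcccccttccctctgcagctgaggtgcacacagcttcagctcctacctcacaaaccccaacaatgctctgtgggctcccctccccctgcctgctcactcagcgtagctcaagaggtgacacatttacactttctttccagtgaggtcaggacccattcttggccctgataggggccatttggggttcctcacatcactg
Lat upstream: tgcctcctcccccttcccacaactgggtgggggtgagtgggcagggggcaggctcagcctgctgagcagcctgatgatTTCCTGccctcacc
CAGGAA in either direction occurred 3 times in the *Zap70* intron stretch, 1 time each upstream of *Lck* and *Lat* and not in the stretch downstream of *Zap70*. It is a common hexamer, found in 28.9 to 31.0% of the 250-base windows around all peak summits of a list, in 24.3 to 24.6% of windows 5 kb beside them and in 30.6% of 32817 RefSeq promoter windows of 300 bases. GCNTGACC, the core of the motif known for Pax5, searched on both strands and separately from CAGGAA, occurred in none of the 4 stretches. It was found in 5.04 to 6.86% of the windows around peak summits, against 1.87 to 2.10% of those beside them, and in 3.17% of promoter windows. Of the 10 RefSeq promoter windows of 7 members, 8 held CAGGAA and 1, at *Zap70*, held GCNTGACC.

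*Sirt7* followed the genotype labels in both tables that hold Sirt7-/- cells. Its transcripts stood at 2692 and 2533 normalized counts (counts scaled for library depth by the authors) in Wt pro-B cells and at 363 and 366 in Sirt7-/- pro-B cells. In pre-B cells the levels were 5613 and 5219 against 1066 and 821. The difference in log2(normalized count + 1), the scale of every log2 value below, was -2.84 (SE 0.14, adjusted p = 0.0029) in pro-B and -2.53 (SE 0.14, adjusted p = 0.0093) in pre-B cells. In culture *Sirt7* was at 1324 and 905 with Wt EV and at 336 and 387 with Sirt7-/- EV. In Pax5-/- cells *Pax5* reads, which the vectors can supply, stood at 2201 and 2103 with EV, 8918 and 8963 with PAX5K198Q, 6458 and 6152 with Pax5Wt and 21162 and 16609 with PAX5K198R. The forms were not at equal transcript levels, and PAX5K198R exceeded Pax5Wt by 1.57 on the log2 scale (SE 0.12, adjusted p = 0.0029). Reads on *Pax5* with EV do not check the deletion, since the part deleted was not examined. In the third table *Pax5* was at 23862 and 27134 with Wt EV, 25995 and 37114 with Sirt7-/- EV, 43024 and 43260 with Pax5Wt and 38690 and 45426 with PAX5K198R. Both vectors lay above EV, but the differences of 0.47 and 0.43 (SE 0.18 each, adjusted p = 0.43 and 0.24) were not called, so *Pax5* reads do not check the vector labels there.

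Depth was 50004827 to 55536608 reads per library in the sorted cells. For the cultured cells whole reads were not recovered, and summed normalized counts were 28865461 to 30520853 in the Pax5-/- table and 27814214 to 30160880 in the Wt and Sirt7-/- table. Levels under 10 normalized counts, at or near the limit of these tests, made up 18 of the 80 member values in sorted cells, 28 of 80 in Pax5-/- cells and 8 of 48 in cultured Wt and Sirt7-/- cells. All 10 members had at least 10 normalized counts in 2 libraries of the sorted table and were tested there, 8 in the Pax5-/- table and 5 in the third. A call is an adjusted p below 0.05 (limma, Benjamini-Hochberg over all genes tested in a table). The sorted replicates are separate mice. The methods state that a replicate in mouse experiments is 1 animal and that RNA-seq replicates were made on different days, without saying how this applies to the cultures, so there p-values measure the spread between these samples only. Same-numbered libraries of the cultured tables deviated together in every pair of groups, so values with the replicate number as a block are given where they change a call.

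One mouse stood apart in the sorted cells. In Sirt7-/- replicate 2 the summed erythroid markers reached 48399 in pro-B and 72991 in pre-B cells, against 5889 to 16539 in the other 6 libraries, with *Hba-a1* as the most abundant (19328 and 22303 against 2365 to 5263). NK cell and ILC markers summed to 2698 and 1739 in these libraries, against 1049 to 1108 in the other pro-B and 188 to 385 in the other pre-B libraries, with *Il2rb* highest at 1007 and 685. In the pre-B library of this mouse the early pro-B marker *Dntt* was at 3838, against 131 to 423 in the other pre-B libraries. Stage and genotype results are therefore also given without both libraries of this mouse, a fit chosen after seeing the data, in which the lone Sirt7-/- library of a stage is assumed to vary like the other groups. The title of each sorted library was used for its stage, since the cell type label repeats a single stage for both libraries of a mouse. Summed early pro-B markers (83975 to 117343 in pro-B titles, 6739 to 20764 in pre-B titles) followed the titles, as did pre-B markers in the opposite direction (54273 to 74552 and 134768 to 175439).

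The stage of the cell was the comparison in which most members differed. In Wt mice 8 of 10 members were lower at the pre-B stage, where 22.0% of all 17649 genes tested were lower, and in Sirt7-/- mice also 8 of 10, where 19.2% were lower. No member was higher in pre-B cells of either genotype. *Cd3e* and *Cd3g* were at 0 in all pre-B libraries and were tested only through their pro-B values, so they could only come out lower. *Cd3d*, *Trbc1* and *Trbc2* also needed pro-B libraries to be tested. *Zap70*, *Lat*, *Thy1*, *Lck* and *Cd247* were at 10 normalized counts or more in every sorted library. The median log2 difference of the members was -4.51 in Wt and -2.68 in Sirt7-/- mice, against -0.04 and -0.04 for all genes tested. With genes at 0 in pre-B cells placed at the bound that 3 reads per library allow, the medians were -3.28 and -1.87. Bulk levels do not tell fewer cells with a transcript from less transcript per cell.

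**Figure D2:**
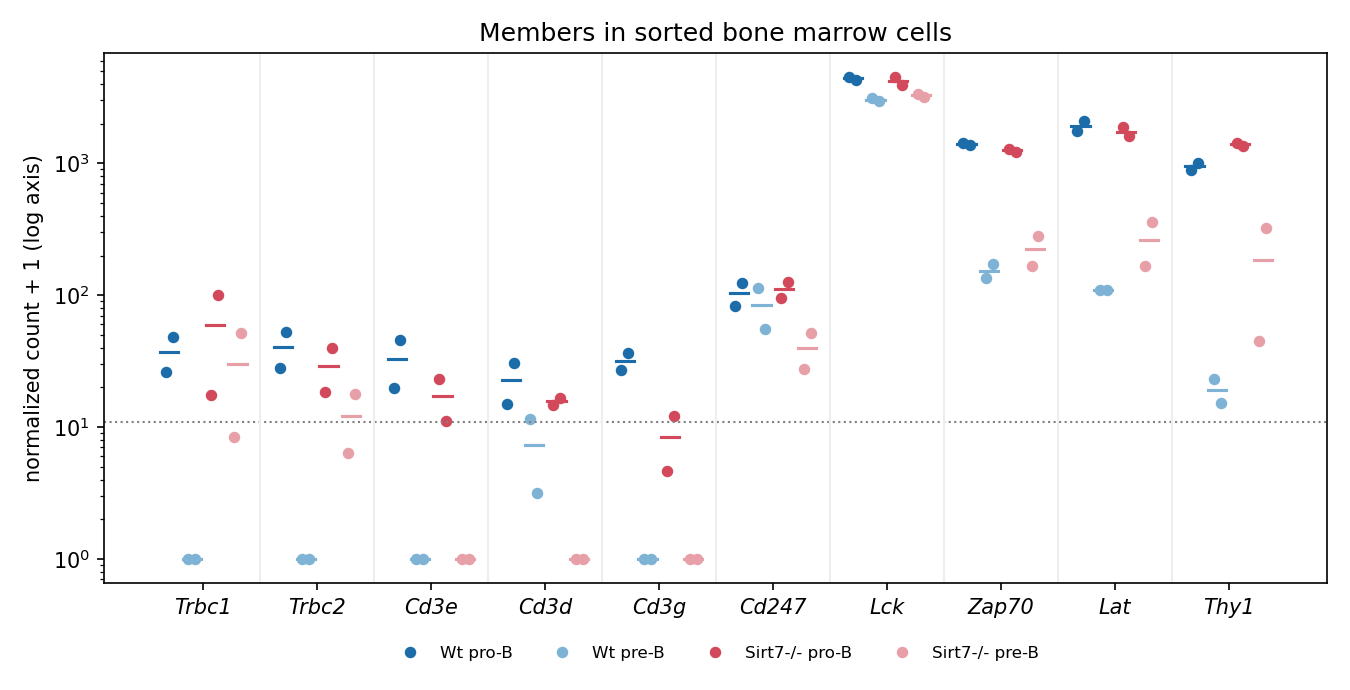
Levels of the 10 members in sorted pro-B and pre-B cells (normalized count + 1, log axis), with 2 libraries per group as points, their mean as a bar and a dotted line at 10 normalized counts. Wt and Sirt7-/- pro-B points lie above the pre-B points of the same genotype for *Zap70*, *Lat* and *Thy1*, the pre-B points of *Cd3e* and *Cd3g* lie at 0, and *Lck* is at 2961 or more in every library.

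Among the receptor chains, the constant genes *Trbc1* and *Trbc2* were low in pro-B cells and at 0 in Wt pre-B cells. *Trbc1* stood at 25.2 and 47.6 in Wt pro-B cells, at 0 and 0 in Wt pre-B cells, at 16.5 and 99.6 in Sirt7-/- pro-B cells and at 7.46 and 50.6 in Sirt7-/- pre-B cells. *Trbc2* stood at 27.1 and 51.3, 0 and 0, 17.4 and 38.7, and 5.33 and 16.9 in the same order. In Wt mice both fell at the pre-B stage, by at least 11.3-fold for *Trbc1* (adjusted p = 0.0100) and at least 12.2-fold for *Trbc2* (adjusted p = 0.0019), counted against 3 reads per library, and *Trbc1* was not called without Wt pro-B replicate 2 (adjusted p = 0.063). In Sirt7-/- mice neither was called (log2 difference -1.01 for *Trbc1*, adjusted p = 0.51, and -1.35 for *Trbc2*, adjusted p = 0.21). The Sirt7-/- groups overlapped for *Trbc1*, and replicate 2 held the higher value of both genes at both stages.

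The CD3 chains were scarce at both stages. *Cd3e* was at 18.7 and 44.8 in Wt pro-B cells and at 22 and 10.1 in Sirt7-/- pro-B cells. All 4 pre-B libraries had no read of *Cd3e*. The fall was at least 9.89-fold in Wt (adjusted p = 0.0031) and at least 5.06-fold in Sirt7-/- mice (adjusted p = 0.0089). *Cd3g* was at 26.2 and 35.4 in Wt and at 3.67 and 11.1 in Sirt7-/- pro-B cells, and again at 0 in all 4 pre-B libraries. Its fall was at least 9.60-fold (adjusted p = 0.0032) in Wt and at least 2.32-fold in Sirt7-/- mice (adjusted p = 0.030). The latter limit rests on the higher pro-B value, since 3.67 is close to the bound of 3.18 used for pre-B cells. The Sirt7-/- call was lost with mouse as a block (adjusted p = 0.058) and with a pseudocount of 5. It was also lost without either Sirt7-/- pre-B library and without Sirt7-/- pro-B replicate 2. *Cd3d* was at 14 and 29.8, 10.5 and 2.19, 13.8 and 15.7, and 0 and 0 in Wt pro-B, Wt pre-B, Sirt7-/- pro-B and Sirt7-/- pre-B cells. It fell at least 4.63-fold in Sirt7-/- mice (adjusted p = 0.010), while in Wt mice the difference of -1.83 was not called (adjusted p = 0.12) although the pro-B values were both higher. The zeta chain gene *Cd247* was at 81.3 and 123 in Wt pro-B, 113 and 54.7 in Wt pre-B, 94.5 and 125 in Sirt7-/- pro-B and 26.7 and 50.6 in Sirt7-/- pre-B cells. The Wt groups overlapped (log2 difference -0.34, adjusted p = 0.61). In Sirt7-/- mice *Cd247* fell by 1.54 on the log2 scale (adjusted p = 0.046) and was not called with mouse as a block (adjusted p = 0.054). The block by mouse left 6 of 10 calls in Sirt7-/- mice and 8 of 10 in Wt mice. Leaving out single Sirt7-/- libraries left 5 calls (without pre-B replicate 1), 6 (without pre-B replicate 2), 4 (without pro-B replicate 1) and 4 (without pro-B replicate 2), and *Zap70* and *Lat* were among them each time. *Cd3e* was not called without Sirt7-/- pro-B replicate 1 (adjusted p = 0.058), nor *Cd3d* without pro-B replicate 2 (adjusted p = 0.055). Without both libraries of the second Sirt7-/- mouse 4 calls were left, *Zap70*, *Lat*, *Thy1* and *Cd3e* (adjusted p = 0.0092, 0.0068, 0.0085 and 0.041). *Lck*, *Cd3d*, *Cd247* and *Cd3g* were then not called (adjusted p = 0.086, 0.093, 0.13 and 0.14).

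The kinases differed from each other in how far they fell. *Lck* was the most abundant member in every sorted library, also per kb of exon, at 4511 and 4293 in Wt pro-B cells, 3113 and 2961 in Wt pre-B cells, 4508 and 3958 in Sirt7-/- pro-B cells and 3384 and 3161 in Sirt7-/- pre-B cells. Pro-B and pre-B values did not overlap, yet the log2 differences were small, -0.54 in Wt (SE 0.10, adjusted p = 0.0058) and -0.37 in Sirt7-/- mice (SE 0.10, adjusted p = 0.028). The Sirt7-/- call was lost when Sirt7-/- pre-B replicate 1, pre-B replicate 2 or pro-B replicate 1 was left out (adjusted p = 0.058, 0.095 and 0.15). *Zap70* was at 1433 and 1377 in Wt pro-B cells (1405 ± 39.5, mean ± SD, n = 2), 135 and 171 in Wt pre-B cells (153 ± 25.2), 1291 and 1225 in Sirt7-/- pro-B cells (1258 ± 46.8) and 166 and 280.3 in Sirt7-/- pre-B cells (223 ± 80.6). Every pro-B value was above every pre-B value. *Zap70* fell by 3.20 in Wt (SE 0.26, adjusted p = 0.00028) and fell by 2.54 in Sirt7-/- mice (SE 0.26, adjusted p = 0.00084).

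Per kb of exon *Zap70* was far below its B cell relative. Its level per kb was 8.32 to 9.07% of that of *Syk* in the 4 pro-B libraries and 0.288 to 0.670% in the 4 pre-B libraries, with *Syk* itself higher in pre-B cells (by 1.55 in Wt and 1.56 in Sirt7-/- mice). *Lck* per kb was 80.6 and 66.0% of *Lyn* in Wt pro-B, 87.4 and 76.5% in Sirt7-/- pro-B, 18.6 and 15.9% in Wt pre-B and 23.7 and 22.1% in Sirt7-/- pre-B cells. *Lyn* itself rose by 1.55 in Wt and by 1.47 in Sirt7-/- mice.

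The adaptor *Lat* and the surface protein *Thy1* fell further. *Lat* was at 1747 and 2089 in Wt pro-B cells, 109 and 109 in Wt pre-B cells, 1876 and 1604 in Sirt7-/- pro-B cells and 164 and 360.3 in Sirt7-/- pre-B cells. It fell by 4.12 in Wt (SE 0.34, adjusted p = 0.00030) and fell by 2.83 in Sirt7-/- mice (SE 0.34, adjusted p = 0.0015), and pro-B and pre-B values did not overlap. *Thy1* was at 886 and 1007 in Wt pro-B, 22 and 14.2 in Wt pre-B, 1422 and 1357 in Sirt7-/- pro-B and 43.7 and 323 in Sirt7-/- pre-B cells. It fell by 5.66 in Wt (SE 0.80, adjusted p = 0.0019) and fell by 3.53 in Sirt7-/- mice (SE 0.80, adjusted p = 0.015), the latter not called without either Sirt7-/- pro-B library (adjusted p = 0.067 and 0.065). Both stages were apart in both genotypes, and of the Sirt7-/- pre-B libraries replicate 2 was the higher for both genes. Without that library the *Thy1* difference in Sirt7-/- mice was -4.96 and the *Lat* difference -3.39, and both were called.

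**Figure D3:**
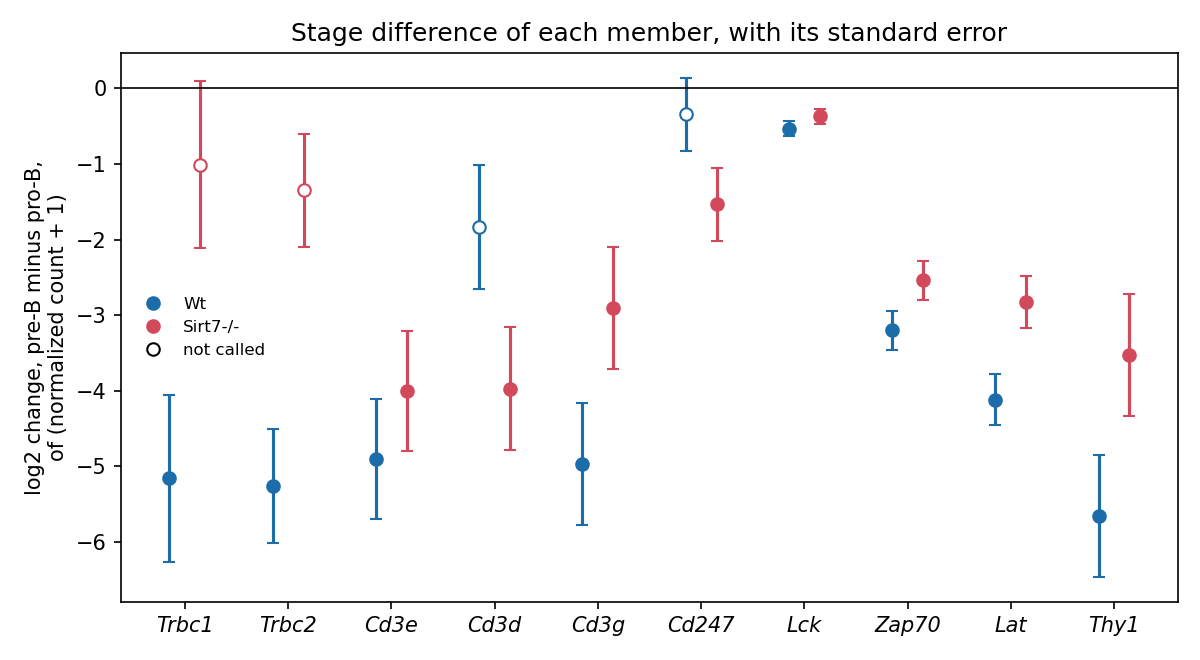
Fitted log2 difference of each member between pre-B and pro-B cells (vertical axis, pre-B minus pro-B, log2 of normalized count + 1) in Wt and Sirt7-/- mice, with the standard error as a bar and open circles for differences that were not called. All points lie below 0, *Lck* nearest to it at -0.54 and -0.37 among the members called, and values of genes at 0 in pre-B cells depend on the added 1.

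Among genes that mark other cells, T cell markers moved with the members, and the other lists varied. Of 10 T cell defining markers tested, some of which are also pathway genes below, 7 were lower in Wt pre-B than pro-B cells and 4 in Sirt7-/- cells. Their summed level was 4072 and 4562 in Wt pro-B, 230.0 and 248 in Wt pre-B, 4489 and 4655 in Sirt7-/- pro-B and 317 and 870.3 in Sirt7-/- pre-B cells. *Ubash3a*, a negative regulator of T cell receptor signalling, was the most abundant (149.5 to 4108), and 6 markers, *Bcl11b*, *Cd8a* and *Themis* among them, were at 0 in both Wt pre-B libraries. In Wt pro-B cells *Trac*, the alpha chain constant gene, reached 65.4 and 93.2, and *Bcl11b*, a T lineage transcription factor, 27.1 and 32.6. *Bcl11b* and *Trat1*, called lower in both genotypes, reached 10 normalized counts in pro-B libraries only, so they were tested through the stage where they were high. Of 12 NK cell and ILC markers 3 were lower in Wt and 2 in Sirt7-/- pre-B cells, shares near the 22.0% and 19.2% of all genes, but 7 and 3 had an unadjusted p under 0.05 and their median differences were -3.21 and -2.31. Of 10 myeloid markers 3 were lower in Wt and 4 in Sirt7-/- pre-B cells, *Lyz2* and *Csf1r* among them, and *Itgam* was higher in both. Of 5 plasmacytoid dendritic cell markers 0 were lower and 1 and 2 were higher. In either genotype 1 of 7 erythroid and 1 of 8 stromal markers tested were lower and 0 higher. Of 4 plasma cell markers 1 was lower and 1 higher. The part of such cells in the members' levels was not tested.

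Between genotypes no member was called. In pro-B cells Sirt7-/- against Wt gave 0 of 10, where 0.0623% of genes (11) were called, and 1 member, *Cd3g*, had an unadjusted p under 0.05 (1048 genes did). In pre-B cells it gave 0 of 10, where 0.0850% of genes (15) were called. An unadjusted p under 0.05 was found for 5 members and 2405 genes. The members were *Lat* (log2 difference 1.15, SE 0.34, adjusted p = 0.23), *Thy1* (2.69, SE 0.80, adjusted p = 0.23), *Trbc1*, *Trbc2* and *Cd3d* (-2.59, SE 0.82, adjusted p = 0.25). *Cd3d* lay the other way, with both Sirt7-/- values at 0 and below both Wt values, so the size of its difference depends on the added 1. *Cd247* also had a negative difference (-1.08, SE 0.48, adjusted p = 0.39). In *Lat*, *Thy1*, *Trbc1* and *Trbc2* both Sirt7-/- values were above both Wt values, with replicate 2 the higher of the Sirt7-/- libraries. Without that library the differences were 1.26 for *Thy1* and 0.59 for *Lat*, and 0 members were called. Without both libraries of that mouse 0 members were called at either stage, and the adjusted p was 0.42 for *Thy1*, 0.48 for *Lat*, 0.37 for *Trbc1* and 0.42 for *Trbc2*. Without Sirt7-/- pre-B replicate 1, *Thy1* (4.12, adjusted p = 0.0100) and *Lat* (1.72, adjusted p = 0.031) were called. edgeR on the recovered reads called 0 of 10 in both stages. DESeq2 on the same reads called 0 in pro-B and 4 in pre-B cells, namely *Lat*, *Thy1*, *Trbc1* and *Trbc2* (adjusted p = 0.013, 0.00032, 0.0085 and 0.033). Without both libraries of that mouse DESeq2 called 0 members in pre-B cells (adjusted p = 0.18 for *Thy1* and 0.54 for *Lat*, and none given by the tool for *Trbc1* and *Trbc2*). The NK cell, early pro-B and erythroid values of that replicate given above move with these 4 genes, and their part was not tested.

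Whether the fall from pro-B to pre-B differed between genotypes was tested as an interaction. It called 0 of 10 members, where 0.00567% of genes (1) were called, and edgeR and DESeq2 also called 0 members. *Trbc1*, *Trbc2* and *Lat* had an unadjusted p under 0.05, as had 959 genes. Their adjusted p was 0.89, 0.76 and 0.88. For *Lat* the interaction was 1.29 (SE 0.48) with all libraries, 0.73 without Sirt7-/- pre-B replicate 2 and 0.61 without both libraries of that mouse, where 0 members were called. For *Zap70* it was 0.67 (SE 0.36, adjusted p = 0.94).

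The rest of the pathway held genes of both directions. Of 44 other genes of the T cell receptor pathway tested in sorted cells, 13 were higher and 17 lower in Wt pre-B cells (median -0.55), and 15 were higher and 11 lower in Sirt7-/- pre-B cells (median -0.41). Of all genes tested 18.1% were higher in Wt and 16.5% in Sirt7-/- pre-B cells, beside the 22.0% and 19.2% lower. Among receptor chains and coreceptors 6 of 12 were lower in Wt, such as *Trac*, *Cd5* and *Cd8a*, and 1 was higher, the adhesion receptor *Cd2* (843 ± 454 in pro-B, 5675 ± 1302 in pre-B cells, n = 2). Of 13 kinases and adaptors 9 were lower, among them *Fyn*, *Lcp2* and *Trat1*, and 2 were higher, *Tec* and *Grap2*. None of the 10 enzymes and downstream factors was lower in Wt, and 4 were higher, *Rasgrp1*, *Malt1* and *Bcl10* among them. *Malt1*, a protease shared with B cell receptor signalling, went from 3244 and 2985 in Wt pro-B to 8497 and 9177 in Wt pre-B cells (SE 0.10 on the log2 scale, adjusted p = 0.00016). Of 9 inhibitors and phosphatases 6 were higher in both genotypes, such as *Csk*, the kinase that restrains Lck, and 2 were lower, *Ptpn22* and *Ubash3a*. Of the 9 B cell receptor counterparts 8 were higher in Wt pre-B cells, and the same genes but *Blnk* (7) in Sirt7-/- pre-B cells. Among them *Cd79b* rose by 1.74 in Wt and by 1.52 in Sirt7-/- mice, and *Syk* by the values above.

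In Pax5-/- cells, adding back Pax5 tested which members respond to it and to its mimics of the acetylated and the deacetylated protein. With PAX5K198R 5 of the 8 members tested were lower than with EV (*Trbc1*, *Cd3g*, *Cd247*, *Zap70* and *Thy1*), where 6.05% of 13345 genes were lower. With Pax5Wt 1 of 8 was called (*Trbc1*, lower), where 3.25% of genes were called in either direction. With PAX5K198Q 0 of 8 were called, where 0.922% of genes (123) were called, although 4 members had an unadjusted p under 0.05 (1049 genes did). The median difference of the members from EV was -1.31 with PAX5K198R, -0.63 with Pax5Wt and -0.37 with PAX5K198Q, against 0.01, 0.00 and -0.01 for all genes tested. With the replicate block Pax5Wt against EV gave 4 of 8, with *Cd247* and *Zap70* lower and *Thy1* higher beside *Trbc1* (1343 genes called). The 3 comparisons share the EV libraries, and the vectors differed in *Pax5* level as given above.

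**Figure D4:**
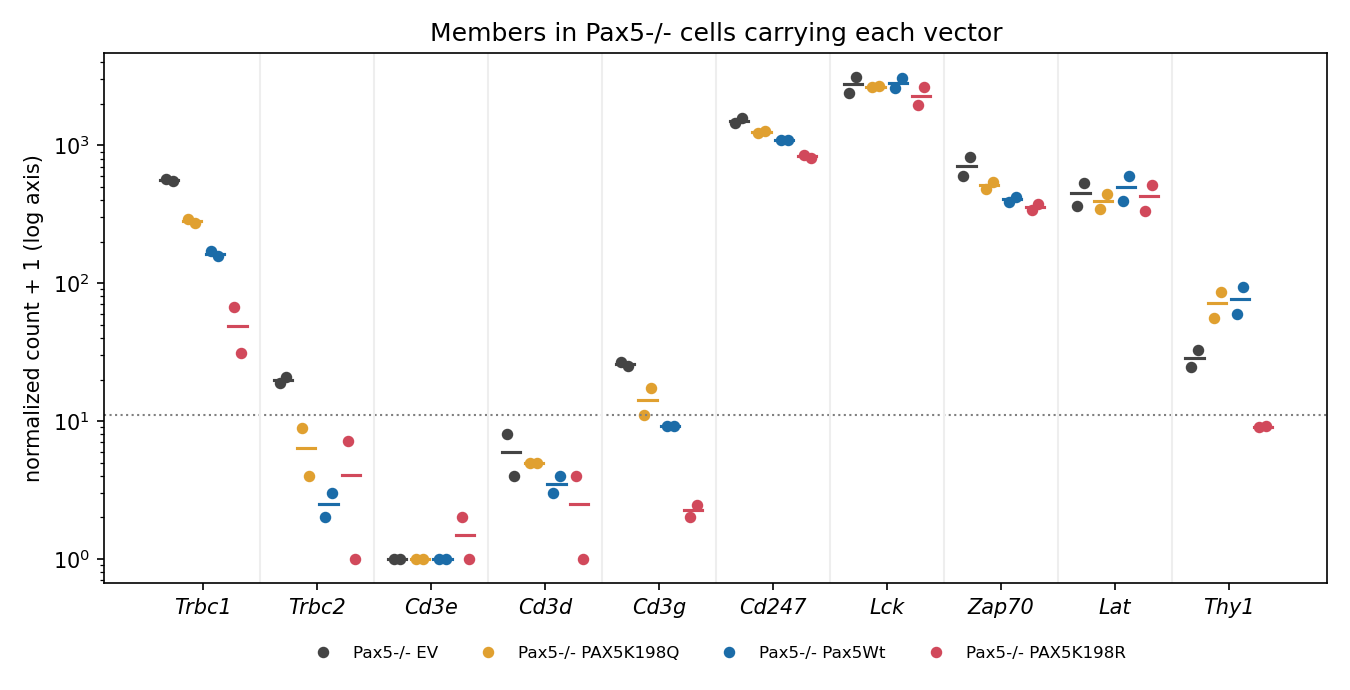
Levels of the 10 members in Pax5-/- cells carrying EV, PAX5K198Q, Pax5Wt or PAX5K198R (normalized count + 1, log axis), with 2 libraries per group as points, their mean as a bar and a dotted line at 10 normalized counts. *Trbc1* steps down from 561 with EV over 281 with PAX5K198Q and 162 with Pax5Wt to 48.0 with PAX5K198R, and *Lat* overlaps in all groups.

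*Trbc1* was called with both Pax5Wt and PAX5K198R. It was at 572 and 551 with EV (561 ± 15.1, n = 2), 289 and 273 with PAX5K198Q (281 ± 11.9), 169 and 156 with Pax5Wt (162 ± 9.10) and 65.8 and 30.2 with PAX5K198R (48.0 ± 25.2). The 4 groups did not overlap. Against EV *Trbc1* fell by 3.62 with PAX5K198R (SE 0.33, adjusted p = 0.00088) and by 1.78 with Pax5Wt (SE 0.33, adjusted p = 0.032), a call lost without any 1 of the 4 libraries compared (adjusted p = 0.14 to 0.22). With PAX5K198Q *Trbc1* was not called (adjusted p = 0.41). *Trbc2*, whose reads may be shared with *Trbc1*, was at 17.7 and 19.8, 7.86 and 2.97, 1.02 and 1.98, and 6.13 and 0 in the same order. Its EV values were above the other 6, 6 of its 8 values were under 10, and it was not called in any comparison (adjusted p = 0.12 with PAX5K198R and 0.18 with Pax5Wt against EV) with all libraries. Only its EV values reached 10, so *Trbc2* was tested through the group where it was highest. Without PAX5K198R replicate 1, which leaves the library at 0, *Trbc2* was called in PAX5K198R against EV (adjusted p = 0.021), and without replicate 2 it was not (adjusted p = 0.40).

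Of the CD3 genes *Cd3g* alone was tested. It was at 25.6 and 24.2 with EV, 10.1 and 16.5 with PAX5K198Q, 8.18 and 8.16 with Pax5Wt and 1.03 and 1.47 with PAX5K198R. The groups did not overlap, and all Pax5Wt and PAX5K198R values were under 10. *Cd3g* fell by 3.53 with PAX5K198R (SE 0.50, adjusted p = 0.0046), and it differed by -1.50 with Pax5Wt (adjusted p = 0.19). *Cd3e* was listed at 0 in 7 of the 8 libraries and at about 1 in PAX5K198R replicate 1, and *Cd3d* ranged from 0 to 6.99, and both were too low to be tested. *Cd247* was abundant, at 1443 and 1573 with EV, 1223 and 1265 with PAX5K198Q, 1087 and 1089 with Pax5Wt and 855 and 801 with PAX5K198R. Its groups did not overlap, and it fell by 0.86 with PAX5K198R (SE 0.10, adjusted p = 0.0025), while the -0.47 with Pax5Wt was not called (SE 0.10, adjusted p = 0.056) except with the replicate block (adjusted p = 0.013).

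*Zap70* was at 599 and 824 with EV (711 ± 159, n = 2), 484 and 538 with PAX5K198Q (511 ± 38.0), 388 and 423 with Pax5Wt (405 ± 24.8) and 341 and 375 with PAX5K198R (358 ± 24.3). The groups did not overlap, and the largest spread was within EV. Against EV *Zap70* fell by 0.97 with PAX5K198R (SE 0.18, adjusted p = 0.014), a call lost without EV replicate 2 (-0.74, adjusted p = 0.079). With Pax5Wt the difference of -0.79 was not called (SE 0.18, adjusted p = 0.063, with the replicate block adjusted p = 0.0073), nor was that of -0.46 with PAX5K198Q (adjusted p = 0.54). Per kb of exon *Zap70* was 17.6 and 30.2% of *Syk* with EV and 12.3 to 19.98% with the 3 forms of Pax5. The genes most like *Zap70* over the 8 libraries by Pearson correlation of log2 levels were *Fosl2* (r = 0.99), *Plaur* (r = 0.98) and *Ggta1* (r = 0.98), as a description of libraries that share vectors and culture numbers. *Lat* (335 to 597) overlapped in all groups, and *Lck* (1962 to 3118) in all but PAX5K198Q and PAX5K198R, whose values were 2641 and 2669 against 1962 and 2622, and none of their 10 differences was called. At *Lck*, *Lat* and *Zap70* the peaks printed above were found with Pax5Wt and PAX5K198R in cells where the *Zap70* level with PAX5K198R, but no *Lck* or *Lat* level, was called lower than with EV.

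*Thy1* was low and did not follow this order. It was at 23.8 and 31.5 with EV, 55.3 and 85.4 with PAX5K198Q, 59.0 and 92.5 with Pax5Wt and 8.09 and 8.15 with PAX5K198R. Both Pax5Wt and both PAX5K198Q values were above EV, and both PAX5K198R values were below it. Against EV the differences were 1.40 with Pax5Wt (SE 0.39, adjusted p = 0.12, with the replicate block adjusted p = 0.032), 1.29 with PAX5K198Q (adjusted p = 0.34) and -1.64 with PAX5K198R (SE 0.39, adjusted p = 0.036). The last call was lost with a pseudocount of 5 (adjusted p = 0.053), without the filter on low values (adjusted p = 0.075) and without any 1 of the 4 libraries (adjusted p = 0.075 to 0.17).

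Set against Pax5Wt, 2 of 8 members were lower with PAX5K198R, where 2.10% of genes were lower. *Thy1* fell by 3.04 (SE 0.39, adjusted p = 0.011) and *Trbc1* by 1.84 (SE 0.33, adjusted p = 0.030), and neither was called when a Pax5Wt library was left out (0 of 8). *Cd3g* (-2.03, SE 0.50, adjusted p = 0.088), *Cd247* (-0.39, SE 0.10, adjusted p = 0.11) and *Zap70* (-0.18, SE 0.18, adjusted p = 0.83) were not called. With the replicate block *Cd3g* and *Cd247* were called (adjusted p = 0.048 and 0.031). PAX5K198Q against Pax5Wt gave 0 of 8, where 0.0225% of genes (3) were called, and *Trbc1* alone had an unadjusted p under 0.05 (462 genes did), with a difference of 0.79 (SE 0.33, adjusted p = 1).

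Of 41 other genes of the pathway tested in Pax5-/- cells, 5 were higher and 3 lower with Pax5Wt than with EV and 1 higher and 0 lower with PAX5K198Q. With PAX5K198R 6 were higher and 7 lower, where 3.87% of all genes were higher and 6.05% lower. Of all 13345 genes 300 were higher and 134 lower with Pax5Wt, and 116 higher and 7 lower with PAX5K198Q. *Tcrg-C2*, a gamma chain constant gene, went the other way from *Trbc1*. It was at 15 and 14 with EV, 141 and 96.5 with PAX5K198Q, 1260 and 1717 with Pax5Wt and 139.8 and 71.8 with PAX5K198R. It rose in all 3 comparisons with EV, by 6.57 with Pax5Wt and 2.92 with PAX5K198Q, and was lower with PAX5K198Q and PAX5K198R than with Pax5Wt (-3.64 and -3.86). Its reads may be shared with other gamma constant genes. *Rasgrp1*, an activator of Ras downstream of Lat, rose by 1.99 with Pax5Wt (adjusted p = 0.0011) and was lower by 1.80 with PAX5K198R than with Pax5Wt (adjusted p = 0.0037). With PAX5K198R the alpha chain constant gene *Trac* (433 ± 47.1 to 204 ± 15.2, n = 2), the costimulatory receptor *Cd28* (1295 ± 173 to 544 ± 254) and *Cd2* (329 ± 88.2 to 44.8 ± 17.1) fell. Of the 9 B cell receptor counterparts 4 rose with Pax5Wt, 3 with PAX5K198Q and 5 with PAX5K198R, and none fell. *Blnk*, the adaptor that takes Lat's place in B cells, went from 2.56 and 4.90 with EV to 547 and 397 with PAX5K198Q, 915 and 954 with Pax5Wt and 3586 and 3133 with PAX5K198R.

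Some markers of other cells also moved here. Of 3 plasma cell markers tested *Jchain* (26540 to 67983) was lower with Pax5Wt and with PAX5K198R than with EV, and 0 were called with PAX5K198Q. Of 8 T cell defining markers tested 2 fell with PAX5K198R (*Cd28* and *Trac*) and 0 with the other forms against EV. Their sum was 3098 and 2603 with EV, 2401 and 2086 with PAX5K198Q, 1985 and 1667 with Pax5Wt and 1821 and 1033 with PAX5K198R, with *Cd28* highest in each and *Bcl11b*, which marks the T lineage, between 0 and 0.99. Of 7 NK cell and ILC markers 3 fell with PAX5K198R (*Il2rb*, *Nkg7* and *Klrd1*) and 2 with Pax5Wt. Their sum was 2227 and 2055 with EV, 1387 and 1214 with PAX5K198Q, 731 and 670.1 with Pax5Wt and 486 and 271 with PAX5K198R, in the same order of groups as *Trbc1*, with *Il2rb* highest (80.4 to 955) and *Ncr1* and *Gzmb* at 0 in all 8 libraries. Of 4 plasmacytoid dendritic cell markers tested *Siglech* fell with PAX5K198R and 0 were called with the other forms, with median differences from EV of -1.68 with PAX5K198R, -1.43 with Pax5Wt and -0.68 with PAX5K198Q. Their sum was 10362 and 8158 with EV, 7287 and 4715 with PAX5K198Q, 4858 and 2533 with Pax5Wt and 4693 and 1442 with PAX5K198R, with *Ccr9* highest and *Klk1* at 0 throughout. Of 4 myeloid markers tested *Mpo* and *Csf1r* fell and *Lyz2* rose with PAX5K198R, *Lyz2* rose with Pax5Wt and 0 were called with PAX5K198Q. The myeloid sum was 1020 and 742 with EV, 749 and 725 with PAX5K198Q, 487 and 480.2 with Pax5Wt and 659 and 413 with PAX5K198R, with *Itgam* highest and *S100a9* at 0 throughout. Per the methods, vectors encoded hCD4 or GFP and transduced pro-B cells were selected by a sort for hCD4, which untransduced cells would lack. The study also describes these cells as sorted Lin-, B220+ and IgM-, a gate meant to leave out cells with markers of other lineages. Its antibodies included ones to T cell, myeloid and erythroid surface proteins. The part of other cells in the members' levels was not tested.

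In cultured pro-B cells of Wt and Sirt7-/- mice, where endogenous Pax5 was present, *Lck*, *Lat*, *Thy1* and *Zap70* were the members with levels above 100 in most libraries. Sirt7-/- EV against Wt EV gave 0 of 5 members tested, where 0.557% of 13651 genes (76) were called, and no member had an unadjusted p under 0.05 (1322 genes did). Pax5Wt against EV in Sirt7-/- cells gave 0 of 5, where 0.0366% of genes (5) were called and *Lck* and *Thy1* had an unadjusted p under 0.05 (1353 genes did). PAX5K198R against EV in Sirt7-/- cells gave 1 of 5, *Lck*, which was lower, where 4.83% of genes were called in either direction. The median difference of the members was -1.54 with PAX5K198R, against 0.01 for all genes tested. With the replicate block *Lat* was called in Sirt7-/- EV against Wt EV (-1.06, adjusted p = 0.032), and *Lck*, *Lat* and *Thy1* were called lower with Pax5Wt (adjusted p = 0.019, 0.049 and 0.0067) and with PAX5K198R (adjusted p = 0.0010, 0.0025 and 0.00090). All genes called then numbered 288, 268 and 1588. Both vector comparisons share the Sirt7-/- EV libraries.

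**Figure D5:**
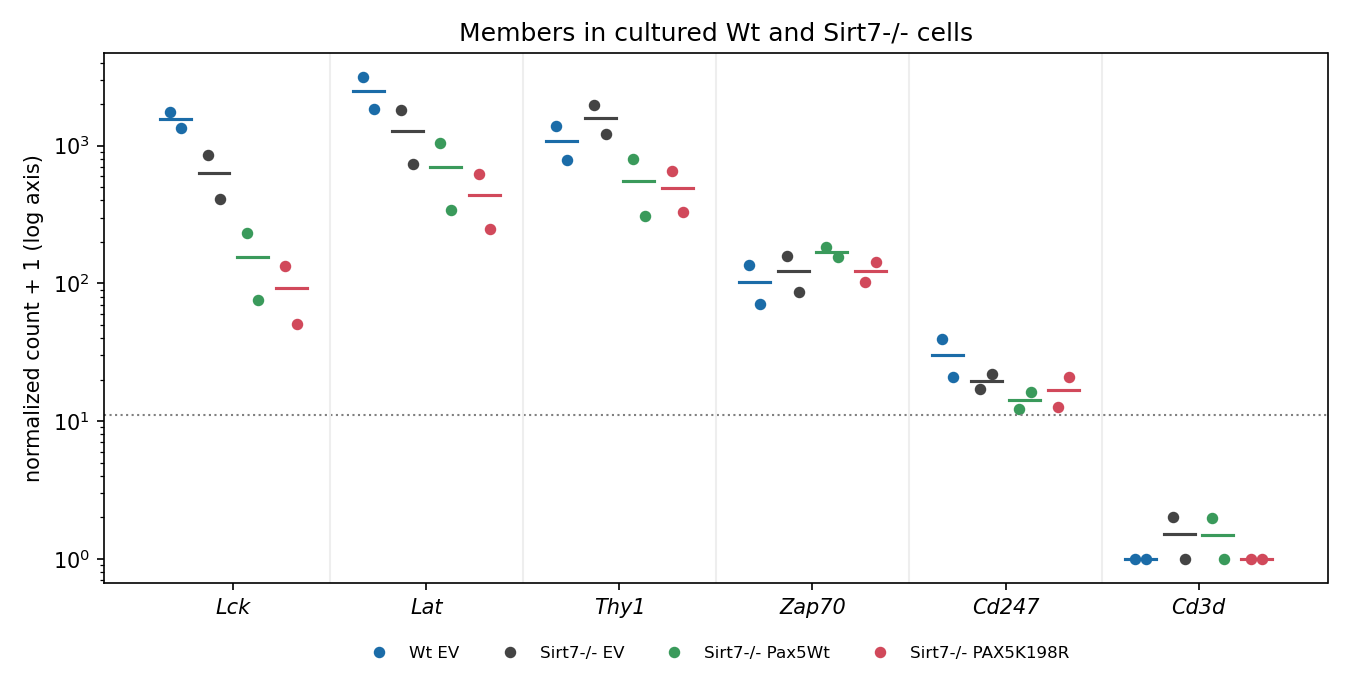
Levels of the 6 members listed in cultured Wt and Sirt7-/- pro-B cells (normalized count + 1, log axis), with 2 libraries per group as points, their mean as a bar and a dotted line at 10 normalized counts. *Lck* is highest with Wt EV (1348 and 1751) and lowest with PAX5K198R (133 and 50.0), its points spread widely within each Sirt7-/- group, and *Cd3d* lies at or near 0.

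*Lck* was at 1751 and 1348 with Wt EV, 847 and 408 with Sirt7-/- EV, 232 and 74.3 with Sirt7-/- Pax5Wt and 133 and 50.0 with Sirt7-/- PAX5K198R. Wt EV and Sirt7-/- EV did not overlap with each other or with the others, whereas Pax5Wt and PAX5K198R did overlap. *Lck* fell by 2.83 with PAX5K198R (SE 0.63, adjusted p = 0.046), and the call was lost when any 1 of the 4 libraries compared was left out (adjusted p = 0.065 to 0.26). With Pax5Wt its difference was -2.15 (SE 0.63, adjusted p = 0.30), and Sirt7-/- EV differed from Wt EV by -1.38 (SE 0.63, adjusted p = 0.55). Per kb of exon *Lck* was 80.0 and 88.5% of *Lyn* with Wt EV, 37.3 and 21.3% with Sirt7-/- EV, 9.76 and 3.97% with Pax5Wt and 6.98 and 2.25% with PAX5K198R. *Zap70* was between 1.37 and 3.22% of *Syk* in these libraries.

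*Lat* was at 3136 and 1826 with Wt EV, 1807 and 729 with Sirt7-/- EV, 1049 and 339 with Pax5Wt and 625 and 248 with PAX5K198R. Both PAX5K198R values were below both EV values, and the difference of -1.54 (SE 0.66) was not called without the block (adjusted p = 0.27). *Thy1* was at 1380 and 780.1, 1960 and 1208, 803 and 306, and 647 and 329 in the same order. Its Pax5Wt and PAX5K198R values were all below the Sirt7-/- EV values, with differences of -1.63 (SE 0.52, adjusted p = 0.35) and -1.74 (SE 0.52, adjusted p = 0.12). In *Lck*, *Lat* and *Thy1* replicate 1 was the higher library in all 4 groups. *Zap70* was at 134 and 69.4 with Wt EV, 158 and 86.1 with Sirt7-/- EV, 182 and 154 with Pax5Wt and 101 and 142 with PAX5K198R. Its Wt EV, Sirt7-/- EV and PAX5K198R values overlapped, and its differences from EV were 0.52 with Pax5Wt (SE 0.41, adjusted p = 0.78) and 0.04 with PAX5K198R (SE 0.41, adjusted p = 0.98). *Cd247* (11.3 to 38.1) was lower with Pax5Wt than in both EV groups and otherwise overlapped, with no call, and *Cd3d* was between 0 and 1.02.

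Of 38 other pathway genes tested in these cultures, 0 were called in Sirt7-/- EV against Wt EV and 0 with Pax5Wt (8 and 11 had an unadjusted p under 0.05). With PAX5K198R 7 were lower than with EV, where 2.74% of all genes were lower, and 0 higher. They were *Tcrg-C2* and *Tcrg-C4* of the gamma chain locus, the inhibitory receptor *Ctla4*, the adaptors *Grap2* and *Sh2d2a*, the phosphatase *Ptpn22* and the lipid kinase *Dgka*. *Grap2*, an adaptor that binds Lat, went from 851 and 618 with Sirt7-/- EV to 192 and 201 with PAX5K198R (log2 difference -1.88, SE 0.23, adjusted p = 0.0083). *Tcrg-C2*, which rose in Pax5-/- cells, was at 13696 and 13633 with Sirt7-/- EV and at 6201 and 2938 with PAX5K198R. Of the B cell receptor counterparts *Cd79a* rose by 0.57 and the Src-family kinase *Blk* fell by 1.81. Of 7 T cell defining markers tested 1 was lower with Sirt7-/- EV than with Wt EV, *Bcl11b*, listed at 45.9 and 49.7 with Wt EV and at 0 in all 6 Sirt7-/- libraries, and 0 were called with either vector. *Bcl11b* was tested only through its Wt EV values, so it could only come out lower with Sirt7-/- EV. It could not be called with either vector. The summed level of the T cell defining markers was 1868 and 918 with Wt EV, 1708 and 699 with Sirt7-/- EV, 560.4 and 285 with Pax5Wt and 445 and 274 with PAX5K198R, higher in replicate 1 of each group as for *Lck*, and *Ubash3a* was the most abundant (174 to 1603). Stromal markers, which the feeder layer can supply, summed to 8100 to 31765. The study describes these cells as carrying GFP with the vectors, while its methods describe selection of transduced pro-B cells by a sort for hCD4, so whether these libraries were sorted is unclear, and the part of either in the members' levels was not tested.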

How the data were processed

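RNA was measured in 24 libraries, in 3 tables of 8 (4 groups of 2), and Pax5 ChIP-seq in 6 peak lists. Per the study's methods the authors used Salmon (mm10) for quantification and the DESeq2 median of ratios for scaling, and deposited these normalized counts, which are a depth-scaled signal and not raw counts. The authors called ChIP peaks with MACS2 on Bowtie2 alignments for each replicate over its own input, and deposited fold enrichment and -log10 q for each peak. Columns of other series numbered 0. Symbols in the cultured tables came from the files or from reference names for 35437 of 35896 and 18598 of 18721 identifiers. Listings with a repeated symbol (484) stayed in the sorted table and its tests, but were matched to no gene of the lists.

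Genes with at least 10 normalized counts in 2 or more of the 8 libraries were tested on log2(normalized count + 1) with limma 3.58.1 (R 4.3.3, trend), all 4 groups in 1 fit, Benjamini-Hochberg over all genes tested, tested first on simulated data. In the sorted table every value was a whole number of reads (tolerance 1e-06 of a read) once divided by a library factor, and edgeR 4.0.16 and DESeq2 1.42.0 were run on these reads as alternatives. Each of the 4 sorted mice gave both stages, so mouse was used as a block beside the stage comparisons. The replicate number was also used as a block in the cultured tables, since the methods say that replicates were made on different days (not that a number marks a day) and same-numbered libraries deviated together in every pair of groups (correlations 0.264 to 0.383 and 0.156 to 0.428). Deviations from group means of libraries of the same mouse correlated at 0.156 (Sirt7-/-) and 0.0798 (Wt). Other alternatives were a pseudocount of 5, no filter, upper-quartile scaling, a replicate block, an added log2 fold of 1.5 and leaving out each library. Leaving out both libraries of the second Sirt7-/- mouse (limma and DESeq2) was added after seeing the data. Members, lists and tests were chosen with earlier results of these data known. All members, and of other lists up to 8 called genes per comparison with the smallest adjusted p, names in the list counts and the most abundant marker, are named; *Trac*, *Bcl11b*, *Cd28* and *Cd2* levels were chosen after their values were seen. Sequences are from GRCm38, promoter windows from RefSeq, and floors cover counting error only. Some items are not reported here.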

Additional observations from a re-analysis of the deposited data

Results flagged for a closer look

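*Thy1* moved in opposite directions with Pax5Wt against EV in the 2 kinds of cultured cells. In Pax5-/- cells the log2 difference was 1.40 and both Pax5Wt libraries lay above both EV libraries, whereas in Sirt7-/- cells it was -1.63 and both lay below. Neither was called without the replicate block, and with it both were (adjusted p = 0.032 and 0.0067). The tables were normalized separately, and the difference between them was not tested.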

How the results depend on the processing

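Among members with an unadjusted p under 0.05 in a comparison, and leaving aside the added fold limit, 451 values under the alternatives kept their direction and side of the threshold, 51 lost a call, 16 gained one and 0 reversed. Calls gained by members with a larger p are outside these counts. Upper-quartile scaling changed no count of members called. Of the 8 calls between stages in Sirt7-/- mice 7 were left with a pseudocount of 5, which lost *Cd3g*. Also 7 were left without the filter, with the replicate block or with edgeR, each of which lost *Cd247*. In sorted pre-B cells the genotype comparison went from 0 to 4 members with DESeq2, and from 0 to 2 over left-out libraries. The Sirt7-/- stage comparison gave 4 to 6 calls for 8 over left-out libraries, 4 without both libraries of the second Sirt7-/- mouse and 3 with DESeq2 without them. In Pax5-/- cells Pax5Wt against EV gave 0 without the filter, 4 with the replicate block and 0 over left-out libraries. PAX5K198R against EV gave 3 with the added fold limit and 3 to 5 over left-out libraries. PAX5K198R against Pax5Wt gave 1 without the filter, 4 with the replicate block and 0 to 2 over left-out libraries. In cultured pro-B cells the replicate block gave 1 call for Sirt7-/- EV against Wt EV (*Lat*), 3 for Pax5Wt and 3 for PAX5K198R against EV (*Lck*, *Lat* and *Thy1* in both). PAX5K198R there gave 0 without the filter and 0 over left-out libraries. Members with a peak in both lists within 20 kb numbered 7 with Pax5Wt, 1 with PAX5K198Q and 6 with PAX5K198R, where *Cd3e*, *Cd3d* and *Cd3g* counted through the same peak. Over single lists and within 5 kb they numbered 4 to 6 with Pax5Wt, 0 to 3 with PAX5K198Q and 4 to 5 with PAX5K198R. The causes were not tested.

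Calls of members that the replicate block changed in cultures are given beside the results, and it changed no other call of a member there. Across the sorted groups same-numbered libraries correlated at 0.0101 to 0.156. With the replicate block, all genes called went from 434 to 1343 (Pax5Wt against EV), 123 to 363 (PAX5K198Q), 1324 to 2834 (PAX5K198R), 3 to 29 (PAX5K198Q against Pax5Wt) and 383 to 1004 (PAX5K198R against Pax5Wt) in Pax5-/- cells. In the other cultures they went from 76 to 288, 5 to 268 and 659 to 1588. In sorted cells DESeq2 called 126 genes for 11 (pro-B), 720 for 15 (pre-B) and 101 for 1 (interaction), and edgeR 5 for 15 in pre-B cells. Without the second Sirt7-/- mouse 3, 0, 3626 and 0 genes were called by limma for 11, 15, 6293 and 1, and 139, 256, 4587 and 97 by DESeq2 (pro-B and pre-B genotype, Sirt7-/- stage, interaction). Without the filter 260, 73, 231, 44 and 423 genes were called for 434, 123, 383, 76 and 659. With the added fold limit 2451 and 1809 were called for 7090 and 6293 between stages, and 203, 612, 213 and 346 for 434, 1324, 383 and 659 in cultures. Over left-out libraries the lowest and highest counts were 0 and 15, 14 and 177, 4698 and 5244, 3705 and 5836, and 0 and 12 in sorted cells (pro-B and pre-B genotype, Wt and Sirt7-/- stage, interaction). In Pax5-/- cells they were 89 and 166, 31 and 67, 561 and 1484, 0 and 1, and 20 and 576, and in the other cultures 3 and 60, 1 and 5, and 63 and 228. Depth limits *Cd3e*, *Cd3d* and *Trbc2*, under 10 normalized counts in 8, 8 and 6 of the 8 libraries of Pax5-/- cells, and *Cd3g*, under 10 in 4.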
